A study of Mus musculus with 6 samples.

Results

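The mitochondrial respiratory chain was followed through the genes of its subunits and of the factors that assemble complex I. The members were the genes whose only symbol on a probe set begins with Nduf, Uqcr, Cox4, Cox5, Cox6, Cox7 or Cox8, or is Sdha, Sdhb, Sdhc, Sdhd, Cyc1 or Cycs. They were 73 genes with 82 probe sets, of 22180 genes named by 1 symbol and 41345 probe sets in all. Of these, 70 were bright enough to be tested, of 16797 genes tested. Cox7b2, Cox8c and the pseudogene Uqcrh-ps1 were not, because their mean lay under the floor, the 30th percentile of all probe sets (a log2 intensity of 4.49). Another 10 probe sets named a member together with other genes and were not used. The 13 subunits encoded in mitochondrial DNA, of the chain and of ATP synthase, were not analysed here.

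RNA from mouse cancer cell lines grown in serum-containing medium was measured on 6 arrays, each reporting 1 colour. Each line had 1 culture labelled sh Spp1, given as depleted of Spp1 by a short hairpin RNA, and 1 labelled sh Ctrl, whose genotype is given as wild type. The lines were LLC (Lewis lung carcinoma), AE17 (malignant mesothelioma) and MC38 (colon adenocarcinoma). Spp1 encodes osteopontin, a secreted glycoprotein, and its own level was not analysed here, so the depletion was not checked. The labels leave it unclear whether the sh Ctrl cells carried a control hairpin. Nothing says that a line was a single clone, and with 1 array per line and label the lines are the replicates (n = 3).

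The chain moves electrons from NADH and succinate to oxygen in the inner mitochondrial membrane. Complex I oxidises NADH, complex II oxidises succinate, complex III passes the electrons to cytochrome c, and complex IV hands them to oxygen. Complexes I, III and IV pump protons, and the gradient drives ATP synthase. Most subunits are encoded in the nucleus, and their promoters are known for sites of NRF1, GABP (also called NRF2) and YY1.

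The deposited intensities differed in overall brightness, with array medians of 37.2, 26.6 and 43.7 for sh Spp1 in LLC, AE17 and MC38, against 64.2, 36.3 and 49.4 for sh Ctrl. Levels below are therefore log2 intensities after quantile normalisation, and a ratio is the sh Spp1 level minus the sh Ctrl level of the same line. Levels of different probe sets are not comparable. Over all probe sets the LLC arrays correlated at 0.979, those of MC38 at 0.982 and those of AE17 at 0.939, and AE17 sh Ctrl stood closer to LLC sh Ctrl, at 0.954, than to its own sh Spp1 array. Of 8 lung epithelial markers, 7 were above the floor in LLC sh Spp1 cells and 5 in LLC sh Ctrl cells, and none read above 6.37 there. The mesothelial marker Msln read 5.34 in sh Spp1 and 5.13 in sh Ctrl cells of AE17, but 9.96 and 9.87 in those of MC38. Pdpn, another mesothelial marker, read 9.75 in sh Spp1 and 6.99 in sh Ctrl cells of AE17, and 9.63 and 9.70 in those of MC38. The other 6 mesothelial markers read at most 5.83 in AE17. None of 8 intestinal markers read above 5.61 in MC38. Of 7 leukocyte markers measured, 3 were above the floor on all 6 arrays, among them Cd68 at 6.51 to 8.71 and Csf1r at 5.06 to 5.29, and 2 were under it on all 6, Ptprc and Adgre1.

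No respiratory chain gene was called between sh Spp1 and sh Ctrl after adjustment, which does not show that none changed. In limma, blocked on the line and adjusted over all genes by Benjamini-Hochberg, 0 of 70 members and 0 of 16797 genes (0%) passed an adjusted p of 0.05, and the smallest adjusted p of a member was 0.716. On simulated data this test recovered 0% of changes of 1 log2 unit with the fitted spread. With the median spread given to every gene it recovered 90.5%. Before adjustment, 5 of 70 members (7.14%) and 6.2% of all genes had a p under 0.05: Ndufb11, Ndufb8, Uqcrq and Cyc1 were higher in sh Spp1 cells and Cox8b was lower. Cox8b passed the floor only through its sh Ctrl levels. The ratio was above 0 in every line for 21 members (30%), against 16.8% of all genes, and below 0 in every line for 4 (5.71%), against 15.5%. In LLC the median ratio was 0.12 over members and 0.03 over all genes. AE17 had 0.04 and -0.04, and MC38 had 0.07 and 0.02. Ratios of members spread less than those of all genes, with an SD of 0.39, 0.50 and 0.28 over members in LLC, AE17 and MC38 and 0.45, 0.93 and 0.42 over all genes.

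**Figure D1:**
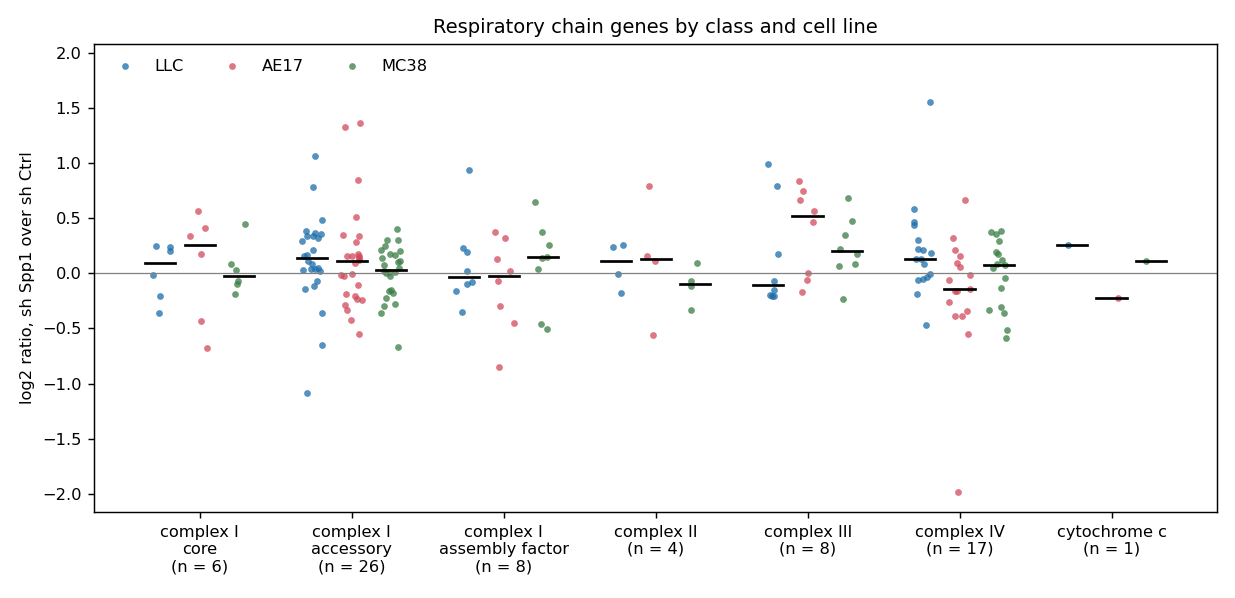
Log2 ratio of sh Spp1 over sh Ctrl (vertical axis) of 70 respiratory chain genes by class, 1 point per gene and colour per line, with a black bar at the class median. Most points lie near 0 in all classes, complex III sits at a median of 0.52 in AE17, and the lowest point is Cox7a1 in AE17 at -1.99.

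Complex I holds the flavin and iron-sulphur centres in its core subunits. Of the 6 core genes tested, 2 were higher in every line (Ndufs3 and Ndufv1) and 1 was lower in every line (Ndufv2). Ndufs3, a subunit of the arm that faces the matrix, had levels of 7.26, 7.75 and 7.50 in sh Spp1 cells of LLC, AE17 and MC38, against 7.06, 7.18 and 7.05 in sh Ctrl cells. Its 3 sh Spp1 levels all lay above its 3 sh Ctrl levels, a separation seen in 6 of 70 members (8.57%) and 5.74% of all genes. The mean ratio was 0.40 (SE 0.18, limma adjusted p = 0.716). Ndufv1, which carries the flavin, had ratios of 0.25, 0.41 and 0.09. The iron-sulphur subunit Ndufv2 had ratios of -0.36, -0.43 and -0.09, but with the deposited intensities its mean ratio lay 0.15 above that of all genes. Ndufs1, the largest core subunit, had -0.20, -0.68 and 0.03. Medians over the core genes of LLC, AE17 and MC38 were 0.09, 0.26 and -0.02.

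The 26 accessory subunits of complex I, which stabilise the complex, had medians of 0.14, 0.11 and 0.03, and 9 of them were higher and 0 lower in every line. Ndufb11, a subunit of the membrane arm, had the highest mean ratio. Its levels were 6.54, 6.93 and 5.84 in sh Spp1 cells of LLC, AE17 and MC38, against 5.47, 5.56 and 5.53 in sh Ctrl cells. All sh Spp1 levels were above all sh Ctrl levels, with ratios of 1.07, 1.37 and 0.31 and a mean of 0.91 (SE 0.26, limma adjusted p = 0.716). Ndufb8, also of the membrane arm, had 7.57, 8.27 and 7.47 in sh Spp1 cells, against 6.79, 7.76 and 7.16 in sh Ctrl cells. It was higher in each line while the groups overlapped, and the mean ratio was 0.53 (SE 0.18, limma adjusted p = 0.716). Their promoters are shown with that of the assembly factor gene Ndufaf4 and that of Cox7a1, the 4 genes having been picked after their values were seen. Each runs from 250 bases before to 50 after the start (RefSeq, GRCm38.p6): Ndufb11 at chrX:20617570-20617869 on the minus strand, Ndufb8 at chr19:44555393-44555692 on the minus strand, Ndufaf4 at chr4:24897833-24898132 on the plus strand and Cox7a1 at chr7:30183921-30184220 on the plus strand. Capitals mark the YY1 motif in Ndufb11 and the NRF1 motif in Ndufaf4.
Ndufb11: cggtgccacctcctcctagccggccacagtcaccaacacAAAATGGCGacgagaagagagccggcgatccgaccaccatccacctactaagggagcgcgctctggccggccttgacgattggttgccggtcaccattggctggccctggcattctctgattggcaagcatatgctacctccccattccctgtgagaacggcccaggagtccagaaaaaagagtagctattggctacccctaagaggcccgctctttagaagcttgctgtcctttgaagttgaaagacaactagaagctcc
Ndufb8: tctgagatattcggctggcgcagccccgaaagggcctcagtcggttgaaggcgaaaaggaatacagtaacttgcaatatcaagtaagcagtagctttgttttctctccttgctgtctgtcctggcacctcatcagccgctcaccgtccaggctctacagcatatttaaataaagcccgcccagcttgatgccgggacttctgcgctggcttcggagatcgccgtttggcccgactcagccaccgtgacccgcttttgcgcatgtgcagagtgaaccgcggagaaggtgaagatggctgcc
Ndufaf4: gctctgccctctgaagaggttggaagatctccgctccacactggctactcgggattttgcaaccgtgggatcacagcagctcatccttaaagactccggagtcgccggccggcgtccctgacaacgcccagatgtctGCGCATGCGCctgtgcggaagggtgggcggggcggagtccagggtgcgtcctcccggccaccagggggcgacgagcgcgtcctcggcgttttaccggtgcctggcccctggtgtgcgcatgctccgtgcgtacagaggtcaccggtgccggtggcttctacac
Cox7a1: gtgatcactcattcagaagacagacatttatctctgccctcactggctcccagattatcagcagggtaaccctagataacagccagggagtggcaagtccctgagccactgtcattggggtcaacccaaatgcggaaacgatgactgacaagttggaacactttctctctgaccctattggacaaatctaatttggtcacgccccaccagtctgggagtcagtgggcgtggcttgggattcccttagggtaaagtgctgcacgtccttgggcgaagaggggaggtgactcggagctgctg

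On both strands 5 motifs were searched. Promoters were found for 58 member genes, with 60 starts, and compared with all 32851 promoters of that length. The NRF1 motif, as capitalised in Ndufaf4 but with the sixth base free, was in 20% of member promoters and 4.6% of all. The GABP motif CCGGAAG was in 21.7% and 8.86%, and the YY1 motif AANATGGCG in 11.7% and 2.38%. The ERRA motif TCAAGGTCA was in 1.67% and 0.423%, which is 1 member promoter, and the CCAAT box (CCAAT) was in 36.7% and 37.4%. Only the NRF1, GABP and YY1 motifs are in capitals above, a choice made after the shares of all 5 had been seen; overlaps between motifs were not removed. The Ndufb8 and Cox7a1 windows hold none of the 3.

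The other 7 accessory genes with a ratio above 0 in every line had smaller ones. Ndufab1, which doubles as the mitochondrial acyl carrier protein, had 6.99, 6.78 and 6.53 in sh Spp1 cells, against 6.65, 6.62 and 6.13 in sh Ctrl cells, and the groups overlapped. Ndufa9 had ratios of 0.49, 0.34 and 0.01 in LLC, AE17 and MC38. Ndufb5 had 0.37, 0.16 and 0.10, and Ndufa7 had 0.34, 0.17 and 0.05. For Ndufb10, Ndufb7 and Ndufb9 every ratio lay between 0.01 and 0.34.

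Further accessory subunits had ratios of both signs. Ndufa8 had 9.37, 10.19 and 9.89 in sh Spp1 cells, against 9.51, 8.86 and 9.72 in sh Ctrl cells. The sh Ctrl level of AE17 was the low one, and the ratio there was 1.33, against -0.14 in LLC and 0.16 in MC38. A dimmer probe set of Ndufa8 had ratios of 0.43, 0.49 and 0.73, so the probe sets disagree in LLC. Ndufv3, a small subunit of the NADH-oxidising part, had 6.81, 7.86 and 7.50 in sh Spp1 cells, against 7.89, 8.10 and 7.33 in sh Ctrl cells, with its low level in LLC sh Spp1. Ndufs5 had 5.32, 5.62 and 5.40 in sh Spp1 cells, against 5.43, 4.78 and 5.63 in sh Ctrl cells. Its AE17 sh Ctrl level was the low one and lay near the floor. The Ndufs5 ratio was 0.84 in AE17, beside -0.11 in LLC and -0.22 in MC38. Ndufa3 had -0.65, 0.28 and -0.28, and Ndufa6 had 0.22, -0.29 and -0.67, which was the lowest ratio of a member in MC38.

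Complex I is put together by assembly factors that are absent from the finished enzyme. The 8 Ndufaf genes had medians of -0.03, -0.02 and 0.15 in LLC, AE17 and MC38, near those of all genes in LLC and AE17. Ndufaf4 was the 1 member of the class with a ratio above 0 in every line. Its levels were 8.85, 8.42 and 8.40 in sh Spp1 cells, against 7.91, 8.29 and 7.76 in sh Ctrl cells, without overlap (mean ratio 0.57, SE 0.22, limma adjusted p = 0.716). Ndufaf8 had ratios of -0.10, 0.37 and 0.38. At the other end, Ndufaf7, a methyltransferase, had -0.08, -0.85 and 0.15, and Ndufaf5 had 0.19, -0.45 and -0.46. The 7 other complex I assembly factors had medians of 0.17, -0.24 and 0.03, with 1 higher and 2 lower in every line.

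Complex II, which is also an enzyme of the tricarboxylic acid cycle, had ratios of both signs in 3 of its 4 genes. Sdhd, a membrane anchor, had 9.88, 10.60 and 9.46 in sh Spp1 cells, against 9.65, 9.80 and 9.37 in sh Ctrl cells. It was higher in each line and most in AE17, by 0.79, and the groups overlapped. The flavin subunit Sdha had ratios of -0.01, 0.11 and -0.11, and the other anchor, Sdhc, had -0.17, 0.15 and -0.07. The iron-sulphur subunit Sdhb had 0.26, -0.56 and -0.34.

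Complex III had the highest class median in AE17, 0.52, beside -0.11 in LLC and 0.20 in MC38. Of its 8 genes 3 were higher and 0 lower in every line. Uqcrq, a small subunit, had 7.47, 7.32 and 7.12 in sh Spp1 cells of LLC, AE17 and MC38, against 6.48, 6.85 and 6.64 in sh Ctrl cells. The groups did not overlap, and the mean ratio was 0.64 (SE 0.20, limma adjusted p = 0.716). Cyc1, the cytochrome c1 that reduces cytochrome c, had 10.79, 11.29 and 10.82 in sh Spp1 cells, against 10.61, 10.45 and 10.13 in sh Ctrl cells, again without overlap (mean ratio 0.57, SE 0.21, limma adjusted p = 0.716). The Rieske protein gene Uqcrfs1 was higher in each line, by 0.79, 0.57 and 0.08. Among the genes of mixed sign, the core protein gene Uqcrc1 had -0.07, 0.66 and 0.35, and Uqcrh had -0.20, 0.75 and 0.07. In AE17, 4 of the 8 genes thus passed 0.5, all of them upward. Of all genes there, 21.5% did so upward and 44.4% in either direction. The second core protein gene, Uqcrc2, had -0.20, 0.00 and -0.23, and Uqcrb had -0.15, -0.17 and 0.18. With the deposited intensities, relative to all genes, the class median was 0.59 in LLC, the opposite sign, 0.80 in AE17 and 0.35 in MC38.

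Cycs, the carrier between complexes III and IV, had 11.66, 11.42 and 11.57 in sh Spp1 cells, against 11.40, 11.64 and 11.45 in sh Ctrl cells, so that AE17 went the other way from LLC and MC38. Of its 5 probe sets 2 hold identical values, and mouse Cycs has processed pseudogenes whose transcripts the probes may not separate.

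Complex IV had medians of 0.13, -0.15 and 0.07 over 17 genes, 5 higher and 3 lower in every line. Its isoforms differ in where they are used. Cox8b, the heart and muscle form of subunit 8, had 4.24, 4.40 and 4.44 in sh Spp1 cells, against 4.71, 4.79 and 4.95 in sh Ctrl cells. All its sh Spp1 levels were under the floor and below all its sh Ctrl levels, a separation seen in 1 of 70 members (1.43%) and 4.79% of all genes. Its mean passed the floor only through its sh Ctrl levels, so the separation carries no weight as evidence. Since the sh Spp1 levels lie in the dim range, no size is given (limma adjusted p = 0.716). Cox8a, the widely expressed form, had ratios of 0.19, -0.01 and -0.14.

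Cox7a1, the heart and muscle form of subunit 7a, had 5.40, 5.58 and 5.76 in sh Spp1 cells, against 5.28, 7.56 and 5.39 in sh Ctrl cells. The AE17 sh Ctrl array stood alone, and the AE17 ratio was -1.99. Of 8 muscle markers, 6 were above the floor in AE17 sh Spp1, with a median of 5.69, and 8 in AE17 sh Ctrl, with a median of 6.03. Ckm, the muscle creatine kinase, read 5.09 in AE17 sh Spp1 and 6.18 in AE17 sh Ctrl, the largest fall of the 8. Tnni3 went the other way, at 6.18 in AE17 sh Spp1 and 5.39 in AE17 sh Ctrl. The remaining muscle markers had AE17 ratios of -0.85 to -0.05. The part of such genes in the Cox7a1 level was not tested. In RNA of a whole culture, fewer cells of a type and less RNA per cell cannot be told apart. Cox7a2, the widely expressed form, had ratios of 0.13, 0.32 and 0.05, and Cox7a2l, which helps join complexes III and IV, had 0.31, -0.55 and -0.31. Cox7b2, a relative of Cox7b, was above the floor on 1 array, AE17 sh Ctrl, at 5.62, against 2.42 in AE17 sh Spp1. The AE17 sh Spp1 value lies in the dim range, so no size is given. Cox7b had ratios of -0.01, -0.26 and 0.08, and its dimmer probe set had 0.76, 0.28 and 0.35. Cox8c and Uqcrh-ps1 were under the floor on all 6 arrays.

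Cox6a2, the muscle form of subunit 6a, had 7.80, 6.01 and 6.26 in sh Spp1 cells, against 6.25, 6.15 and 6.09 in sh Ctrl cells. Only the LLC sh Spp1 array was high, by 1.55, while the muscle markers had a median of 5.42 in LLC sh Spp1 and 5.35 in LLC sh Ctrl cells. Cox6a1, the other form, had -0.06, 0.06 and -0.33. Cox6b2, a testis form, had ratios of 0.08, 0.66 and 0.29, at levels of 4.59 to 5.25, near the floor. With the deposited intensities and relative to all genes, Cox6b2 had -0.28, 0.39 and -0.00073. Cox6b1 had 0.21, 0.21 and 0.35. Cox4i2, a form known for its response to low oxygen, had 0.22, 0.09 and 0.12, but with the deposited intensities its mean ratio relative to all genes was -0.090. Cox4i1 had 0.44, -0.16 and -0.58. Ndufa4, now placed in complex IV, was lower in every line, with ratios of -0.19, -0.34 and -0.36, and lay 0.084 above all genes with the deposited intensities. Its relative Ndufa4l2, a target of hypoxia signalling, had -0.05, -0.39 and 0.38, at levels of 4.57 to 5.11, near the floor.

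Few members had large ratios within a line, where 1 array is set against 1 array and no test is possible. At least 1 log2 unit was reached in LLC by 3 of 70 members (4.29%) and 3.56% of all genes: Cox6a2 and Ndufb11 higher and Ndufv3 lower. In AE17 it was reached by 4 of 71 (5.63%) and 18.6% of all genes: Ndufb11 and Ndufa8 higher, Cox7a1 and Cox7b2 lower. These counts took genes at or above the floor on either array of the line, which added Cox7b2 in AE17. Cox7b2 entered only through its sh Ctrl level, so its direction was fixed by that filter. In MC38 it was reached by 0 of 70 members and 2.59% of all genes. At 0.5 log2 units the counts were 9 (12.9%, against 21.4% of all genes), 18 (25.4%, against 44.4%) and 6 (8.57%, against 16.2%). Members are bright genes, with 39 of 70 in the brightest of 4 equal groups of genes. Within that group 1, 7 and 3 members passed 0.5 in LLC, AE17 and MC38 (2.56%, 17.9% and 7.69%), against 19.1%, 46.3% and 14.5% of all genes there. In the next group down, 30% of 20 members passed in LLC, against 28.2% of all genes there. Below it, 25% of 8 members passed in LLC, against 23%. In AE17 and MC38 members had the smaller share in both of those groups.

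The share of members that were higher differed with the scaling between arrays, and exceeded that of all genes under both scalings given here. With the deposited intensities and relative to the median of all genes, 43 members (61.4%) were higher in every line, against 24.2% of all genes, and 2 (2.86%) were lower, against 24.9%. The same measure after quantile normalisation gave 19 members (27.1%) higher, against 16.3% of all genes, and 5 (7.14%) lower, against 16.3%. With the deposited intensities the members' median lay 0.59, 0.37 and 0.20 above that of all genes in LLC, AE17 and MC38. Quantile normalisation gave 0.09, 0.08 and 0.05. In the deposited intensities the ratio moved with brightness over all genes. Medians were -0.82, -0.55 and -0.23 in the dimmest of the 4 groups and 0.12, 0.08 and 0.38 in the brightest. The 39 members of the brightest group had 0.28, 0.29 and 0.35. After quantile normalisation the members of that group had 0.04, 0.11 and -0.02, against -0.002, -0.07 and 0.02 for all genes there. In MC38 the bright members thus lay slightly below equally bright genes under both scalings.

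**Figure D2:**
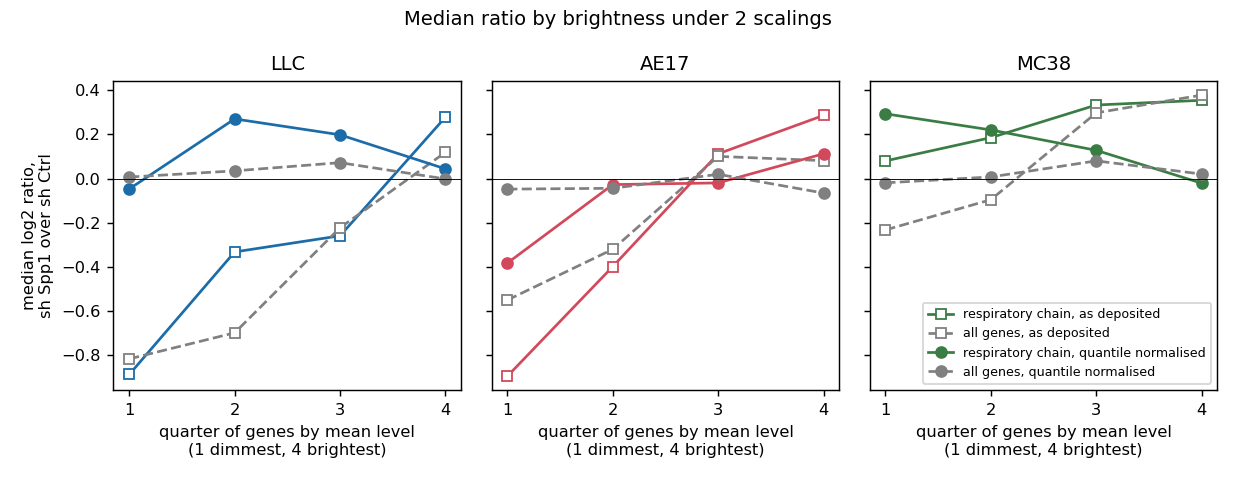
Median log2 ratio of sh Spp1 over sh Ctrl (vertical axis) in 4 equal groups of genes ordered by mean level (horizontal axis), 1 panel per line, for respiratory chain genes (colour, solid) and all genes (grey, dashed), as deposited (open) and quantile normalised (filled). The dimmest group of all genes lies at -0.82 in LLC as deposited, and after quantile normalisation the curves of all genes stay between -0.07 and 0.08, while those of the few dim respiratory chain genes reach -0.38 and 0.29.

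Between lines, members leaned towards higher levels in AE17, and no member passed the threshold. In limma contrasts from the same model, 0 of 70 members and 0 of 16797 genes (0%) passed for AE17 over LLC, MC38 over LLC and MC38 over AE17, and the smallest member adjusted p was 0.312, 0.415 and 0.198. Both AE17 arrays lay above both LLC arrays for 35 members (50%), against 26.2% of all genes, and below for 5 (7.14%), against 15.4%. Both MC38 arrays lay below both AE17 arrays for 34 members (48.6%), against 26.9% of all genes, and above for 2 (2.86%), against 16.5%. For MC38 over LLC the counts were 13 above (18.6%, against 24.9%) and 20 below (28.6%, against 24.2%). Relative to all genes the median difference was 0.15 for AE17 over LLC, -0.06 for MC38 over LLC and -0.15 for MC38 over AE17. These contrasts share arrays, and their error holds each line's own response to the hairpin. With the deposited intensities 102 genes passed for AE17 over LLC, 223 for MC38 over LLC and 300 for MC38 over AE17, with 0 members among them. With AE17 left out, 1072 genes (6.38%) and 0 members passed for MC38 over LLC.

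The difference of MC38 over AE17 was below 0 in 55 of 70 members (78.6%), against 57.6% of all genes. By class it was below 0 in 5 of 6 core and 21 of 26 accessory genes of complex I, 6 of 8 Ndufaf genes, 3 of 4 complex II, 7 of 8 complex III and 12 of 17 complex IV genes, and in Cycs. Uqcrh, a hinge protein of complex III, had 8.50 and 8.43 in MC38 (sh Spp1 and sh Ctrl), against 9.90 and 9.15 in AE17. Cox6b1 of complex IV had 9.45 and 9.09 in MC38, against 10.36 and 10.15 in AE17, a difference of -0.99 (limma adjusted p = 0.198). Both were singled out after their values were seen. The difference of AE17 over LLC was below 0 in 15 of 70 members (21.4%), against 41.6% of all genes. These were 4 of 8 Ndufaf genes, 1 of 6 core, 5 of 26 accessory and 4 of 17 complex IV genes, and Cycs.

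**Figure D3:**
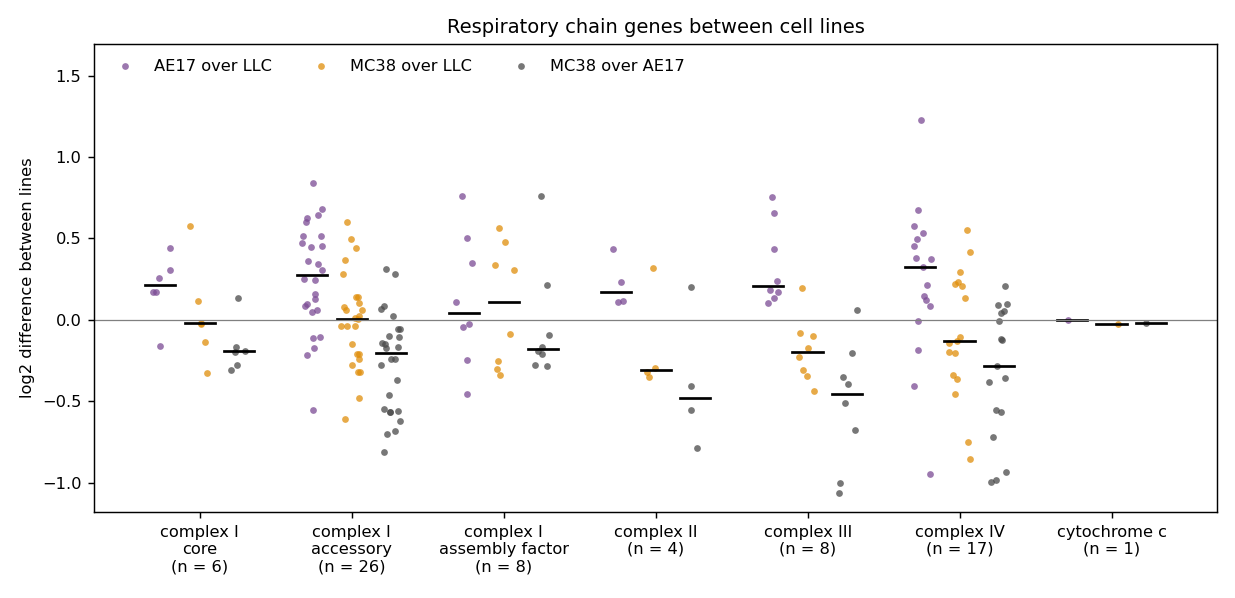
Log2 difference between cell lines (vertical axis), averaged over the sh Spp1 and sh Ctrl arrays, of 70 respiratory chain genes by class, 1 point per gene and colour per pair of lines, with a black bar at the class median. Points of MC38 over AE17 lie mostly below 0 and those of AE17 over LLC mostly above 0.

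In the pathways around the chain, 0 genes passed the threshold for the hairpin. Beside the counts below, 16.8% of all genes were higher and 15.5% lower in every line. ATP synthase, which uses the proton gradient, had medians of 0.11, 0.26 and 0.00 over 15 genes in LLC, AE17 and MC38, with 3 higher and 0 lower in every line. The assembly factors of complexes II, III and IV had -0.01, -0.27 and 0.09 over 30 genes, with 1 higher and 3 lower in every line. Cmc1, a factor of complex IV assembly, had the lowest mean ratio of that list, with -0.56, -1.15 and -0.57. Coa7 had the highest, with -0.21, 1.15 and 0.37. The regulators of mitochondrial biogenesis had 0.34, 0.01 and 0.31 over 15 genes, with 6 higher and 1 lower in every line. Pprc1, a coactivator of NRF1, had 9.32, 9.08 and 9.03 in sh Spp1 cells, against 8.84, 7.59 and 8.20 in sh Ctrl cells, and Tfb1m, a methyltransferase of mitochondrial ribosomal RNA, had ratios of -0.16, -1.19 and -0.35. Nrf1 itself had 0.27, -0.27 and 0.22, and Gabpa, a GABP subunit, had 0.36, -0.57 and 0.25, both read after the motif shares were seen. Tricarboxylic acid cycle genes had medians of 0.11, 0.08 and -0.13 over 13 genes, with 2 higher and 1 lower in every line. Glycolysis and hypoxia genes had 0.07, -0.02 and 0.04 over 19, with 6 higher and 0 lower.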

How the data were processed

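RNA of 6 cultures was labelled with biotin and hybridised to 1-colour arrays, per the labels' protocols. The authors deposited linear intensities, made with RMA per the submitters' processing notes and GeneSpring GX 12.5 per the series design text; the genome build is not given in the sources used here. Array number, not depth, limits precision. Intensities were log2 transformed and quantile normalised (limma 3.58.1, R 4.3.3). Probe sets naming 1 gene, with a mean not under the 30th percentile, were fitted with lmFit and eBayes, the line as block (labels give 1 array per line and group), each gene was represented by its brightest probe set, and p-values were Benjamini-Hochberg adjusted over 16797 genes. The p-values measure the spread between lines, each with 1 culture per label. The members, lists and tests were chosen with earlier results of these data known. The variance prior was first taken from 1 probe set per gene, and was changed to all probe sets after that result had been seen. Genes were named by this rule: the 2 highest and 2 lowest mean ratios per class, and ratios of at least 1 in a line. It also named complex II, Cycs, the complex IV isoforms, and the highest and lowest of each other list. Of the other lists, these extremes are given only for the assembly factors of complexes II, III and IV and the biogenesis regulators. Genes named beyond the rule were chosen after their values were seen. The fit was tested on simulated data, where changes of 2 log2 units were recovered at 23.5% with the fitted spread and 100% with the median spread. Alternatives covered scaling, filter, probe set choice, prior, weights, block and each line left out. Figures used matplotlib 3.10.9 (Python 3.11.15).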

Additional observations from a re-analysis of the deposited data

Results flagged for a closer look

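4 genes had a ratio (sh Spp1 over sh Ctrl) of at least 1 log2 unit in 1 line and the opposite sign in another, 1 array against 1 array each time, and the difference between the lines was not tested. Cox6a2 had 1.55 in LLC and -0.15 in AE17. Ndufv3 had -1.09 in LLC and 0.17 in MC38. Cox7a1 had -1.99 in AE17, beside 0.13 in LLC and 0.37 in MC38. Ndufa8 had 1.33 in AE17 and -0.14 in LLC, where its dimmer probe set had 0.43.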

How the results depend on the processing

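No respiratory chain gene was called between sh Spp1 and sh Ctrl under any of the 12 alternatives run, with a smallest adjusted p of 0.122 to 0.939 (limma). The line is the pair; without that replicate block 0 members were called, with a smallest adjusted p of 0.939. The prior from 1 probe set per gene, the first one run, also gave 0 members and 0.723. Left-out lines moved the count of 1 sign in the remaining lines to 35 to 43 (from 25), higher to 23 to 31 (21), lower to 12 to 15 (4), fewer lines having to share a sign, and the median relative to all genes to 0.07 to 0.09 (0.08). Scaling moved most: as deposited or centred on array medians, the members' median relative to all genes was 0.59 in LLC, 0.37 in AE17, 0.20 in MC38 and 0.39 on average, with 6 and 7 genes past 1 log2 unit in LLC and AE17. Centring alone gave 57 genes of 1 sign, 56 higher (80%, against 41.5% of all genes) and 1 lower (1.43%, against 8.11%). With no filter the AE17 median was 0.029. Averaging the probe sets of each gene gave 0.13 in LLC, 0.11 in AE17 and 0.10 on average, with 2 genes past 1 in AE17. The counts past 1 and those for left-out lines have no share of all genes beside them here. They are therefore not read as results about the members. The threshold of 0.5 gave 9, 18 and 6. Relative to all genes, 4 of 25 genes of 1 sign changed direction: as deposited or centred, Cox4i2 to -0.090, Cox5b to 0.36, Ndufa4 to 0.084 and Ndufv2 to 0.15, and Cox5b also to 0.049 with the mean of its probe sets. Of the 45 members of mixed sign, 35 had a mean ratio that changed sign under at least 1 alternative, 98 of 538 values; no direction is given for their means. These means were first followed as results for the 21 named ones (40 of 251 values changed sign) and were replaced, after that was seen, by their ratios within each line, of which 62 of 312 moved by more than the SD between lines. Causes were not tested. Between lines 0 members were called under every alternative run, while all genes called ranged over the alternatives from 0 to 102 for AE17 over LLC, 0 to 1072 for MC38 over LLC and 0 to 300 for MC38 over AE17.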
